A study of Mus musculus with 17 samples.

Results

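The genes described here encode subunits of the AMPA and kainate receptors, the fast ionotropic glutamate receptors of the synapse. They are the AMPA receptor genes Gria1, Gria2 and Gria4 and the kainate receptor genes Grik1, Grik2, Grik3, Grik4 and Grik5, 8 genes in all. Statements below on AMPA or kainate receptor genes cover these 8 alone and not every gene of the families. Their chromatin accessibility was read from ATAC-seq peaks in 17 libraries of neuronal nuclei. Overlapping peaks of all libraries were merged into regions, and a region was taken as a member where it overlapped the mm10 gene body of one of the 8 genes, extended by 10 kb at each side. Of 281189 merged regions, 147420 were called in at least 2 libraries of one group and were kept, and 402 of these were members (813 before that filter). Of the 2136179 peaks in the libraries, 6452 lay at the 8 genes. Height could be tested at the regions called in all 17 libraries, which were 69 of the 402 member regions and 36847 of all regions.

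The study asked how acute cocaine and the estrous cycle shape chromatin in the ventral striatum of male and female C57BL/6 mice. Nuclei carrying NeuN, a marker of neurons, were sorted from the bilateral nucleus accumbens of mice aged 52 to 54 days, and every library pooled tissue of 3 animals. The 6 groups were diestrus control (n = 3 libraries), diestrus cocaine (n = 3), proestrus control (n = 3), proestrus cocaine (n = 3), male control (n = 3) and male cocaine (n = 2). Cocaine was given once at 10 mg/kg into the peritoneum and tissue was taken after 1 h, and controls were a baseline group that received no cocaine. A vehicle injection is not mentioned for them in the sources used here, so that the drug and the handling cannot be told apart. Diestrus is the low-estrogen stage of the cycle and proestrus the stage with the estrogen peak. No allele or transgene was used. The stage field of the library diestrus cocaine 2 was blank in the labels, and its group came from its title.

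AMPA receptors are tetramers that carry most fast excitatory current. Gria2 encodes the subunit whose edited transcript makes the channel tight to calcium, and receptors without it pass calcium. Gria1 encodes the subunit that is most tied to activity-dependent insertion at synapses, and Gria4 is prominent in interneurons. Among kainate receptors, the products of Grik1, Grik2 and Grik3 can form channels on their own, while those of Grik4 and Grik5 are high-affinity partners that need one of the former. In the nucleus accumbens most neurons are medium spiny neurons, and the AMPA receptor make-up of these cells has been studied as a lasting trace of cocaine exposure. An ATAC-seq peak marks DNA open to the transposase, such as an active promoter or an enhancer, and does not measure the transcript.

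Libraries held between 75458 and 157005 peaks. The 2 male cocaine libraries held the fewest (87707 and 75458), and diestrus cocaine 1 held the most. The genome-wide background that each library's fold enrichments were taken against, which can be read back from their steps, ranged from 6.26 to 9.55 reads per position, the only measure of depth in the lists. Peaks stood at promoters of the neuronal markers Rbfox3, Snap25 and Syt1 and of all 10 medium spiny neuron markers in all 17 libraries, while the astrocyte marker Gfap, the microglial markers Cx3cr1 and Tmem119 and the vascular marker Cldn5 had none in any library. Other markers of non-neuronal cells did have promoter peaks, with Mbp in 17 libraries, Pecam1 in 13, Csf1r in 12, P2ry12 in 8, Aqp4 in 4, Kdr in 2 and Aldh1l1, Mog and Mag in 1 each. The summed height of the 3 oligodendrocyte markers lay between 8.1 and 13.7, except for a highest value of 18.9 in proestrus cocaine, and their part in the results was not tested. Markers of cortical excitatory neurons were not absent. Summed over 4 such markers (Slc17a7, Neurod6, Tbr1 and Neurod2), promoter peak height lay between 27.4 and 31.9 in male controls, between 7.6 and 10.4 in male cocaine libraries, and between 8.7 and 17.6 in the 4 female groups. Slc17a7 had a promoter peak in all 17 libraries and Neurod6 in 5, and none of the 4 was at 0 throughout. Their part in the male results below was not tested. In sorted bulk nuclei, fewer cells of a type and less open chromatin per cell cannot be told apart.

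The 8 genes differed widely in how many regions they held for their size. Gria1 (chr11:57011387-57330244, plus strand) held 109 regions, or 32.17 per 100 kb of extended gene body, of which 22 were called in every library. Gria2 (chr3:80681450-80802835, minus strand) held 24, and 13 of these were called in every library, a share of 54.2% against 25.0% of all regions and 17.2% of the 402. Gria4 (chr9:4417896-4796234, minus strand) held only 18 regions, or 4.52 per 100 kb, with 5 in every library. The sparsest gene was Grik1 (chr16:87895900-88290265, minus strand) with 10 regions, or 2.41 per 100 kb, and 2 in every library. Grik2 (chr10:49094833-49788766, minus strand), the longest gene at 693.9 kb, held 136 regions but only 12 in every library (8.8%). Grik3 (chr4:125490700-125714173, plus strand) held 37 with 3 in every library, and Grik4 (chr9:42518135-42944493, minus strand) held 43 with 8. Grik5 (chr7:25009849-25072346, minus strand), the shortest at 62.5 kb, held 25 with 4 in every library. Introns contained 86.1% of the 402 regions and annotated starts 2.5%. Base composition separated the genes, with a median GC content of 32.9% at Grik2, 35.8% at Gria4 and 36.1% at Gria2, against 49.9% at Grik4, 51.0% at Grik3 and 51.2% at Grik5. The median over all kept regions was 44.4%. At Grik5, the region chr7:25064932-25085857, which spans the start, peaked 146 bp from the start of Zfp574 and 4713 bp from that of Grik5.

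The bases upstream of the annotated starts show this difference in composition. They are given for the starts of Gria2, Gria4, Grik2, Grik3 and Grik5, 5′ to 3′ on the gene's strand. The source is the RefSeq promoter table of GRCm38.p6, without the bases that lie inside the GENCODE transcript. The table held 6 of the 8 genes, the other two being Gria1 and Grik1. The stretches are chr3:80802836-80803085 for Gria2, chr9:4796235-4796484 for Gria4, chr10:49788767-49789004 for Grik2, chr4:125490446-125490699 for Grik3 and chr7:25072347-25072619 for Grik5, and capitals mark GC boxes (GGGCGG on either strand).
Gria2: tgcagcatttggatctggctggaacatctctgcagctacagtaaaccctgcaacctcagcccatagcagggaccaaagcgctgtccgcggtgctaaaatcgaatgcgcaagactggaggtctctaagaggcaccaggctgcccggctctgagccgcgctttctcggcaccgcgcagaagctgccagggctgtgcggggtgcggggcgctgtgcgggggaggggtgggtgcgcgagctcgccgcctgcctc
Gria4: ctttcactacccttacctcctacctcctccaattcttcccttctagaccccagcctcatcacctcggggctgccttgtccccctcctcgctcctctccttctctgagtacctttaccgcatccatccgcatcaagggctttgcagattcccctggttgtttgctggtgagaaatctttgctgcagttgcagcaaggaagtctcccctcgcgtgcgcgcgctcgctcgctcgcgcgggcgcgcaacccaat
Grik2: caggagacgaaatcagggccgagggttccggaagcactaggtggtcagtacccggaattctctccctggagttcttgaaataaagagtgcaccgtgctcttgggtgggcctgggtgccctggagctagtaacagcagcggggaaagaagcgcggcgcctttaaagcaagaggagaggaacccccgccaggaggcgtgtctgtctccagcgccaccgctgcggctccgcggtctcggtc
Grik3: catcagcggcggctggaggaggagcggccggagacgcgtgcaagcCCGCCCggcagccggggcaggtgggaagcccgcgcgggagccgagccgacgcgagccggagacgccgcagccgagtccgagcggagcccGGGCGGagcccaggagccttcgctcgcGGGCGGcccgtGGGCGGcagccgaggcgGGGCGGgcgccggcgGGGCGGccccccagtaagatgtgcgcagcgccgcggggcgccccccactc
Grik5: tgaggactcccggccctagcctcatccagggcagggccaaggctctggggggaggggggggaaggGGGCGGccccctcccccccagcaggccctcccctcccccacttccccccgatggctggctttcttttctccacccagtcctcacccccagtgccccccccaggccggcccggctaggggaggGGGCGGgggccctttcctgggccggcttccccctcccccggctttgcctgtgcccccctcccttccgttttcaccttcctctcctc
GC content was 64.8% upstream of Gria2, 58.8% upstream of Gria4 and 61.8% upstream of Grik2, against 81.5% upstream of Grik3 and 73.3% upstream of Grik5. Of the 6 promoters in the table, 3 (Grik3, Grik4 and Grik5) held a GC box in the whole window of 300 bases, against 35.63% of 32817 promoters of that length. None of the 6 held an AP-1 site (TGACTCA or TGAGTCA), a CRE (TGACGTCA), an Egr site (GCGTGGGCG, which can overlap a GC box by its last bases) or an estrogen response element, found in 5.2%, 1.79%, 0.61% and 0.07% of all promoters.

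A peak lay over or within 1 kb of the start of every one of the 8 genes in all 17 libraries. Heights are given as fold enrichment over the library's background, scaled so that all libraries had the same median over the 36847 tested regions (centred fold enrichment). Gria2 had the highest start-site peak, with a median of 25.1 over the libraries (range 19.8 to 34.5), followed by Gria1 with 12.4 (10.0 to 15.2), and their ranges did not overlap. Grik2 had a median of 7.57 (4.69 to 10.0), Gria4 of 6.76 (4.97 to 8.16), Grik4 of 6.17 (4.12 to 9.04), Grik3 of 5.29 (3.59 to 7.20) and Grik1 of 4.77 (3.36 to 5.74), and neighbours among these 5 overlapped. The highest Grik2 value lay just under the lowest of Gria1. No order can be given for Grik5, since a peak had its summit within 1 kb of its start in only 7 of the 17 libraries. In the others, a wide peak lay over or within 1 kb of its start, with the summit elsewhere. Away from the starts, several regions were higher than the start-site region of their own gene, in mean fold enrichment as deposited. Among them were chr11:57168855-57172795 in intron 2 of Gria1 (16.8 against 12.3 at the start), chr9:4638497-4640437 in intron 4 of Gria4 (15.8 against 6.81) and chr9:42642395-42643817 in intron 6 of Grik4 (15.6 against 6.27). At Grik2 the highest region elsewhere was chr10:49434687-49440845 in intron 6 (10.2, against 7.63 at the start), and at Grik3 chr4:125701956-125704023 in intron 13 (6.23, against 5.48). At Gria2 it was chr3:80666506-80690169, which runs over the 3′ end (7.31), at Grik5 chr7:25061705-25064667 over coding exons (7.38) and at Grik1 chr16:88187432-88188141 in intron 1 (4.35, called in 10 libraries).

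**Figure D1:**
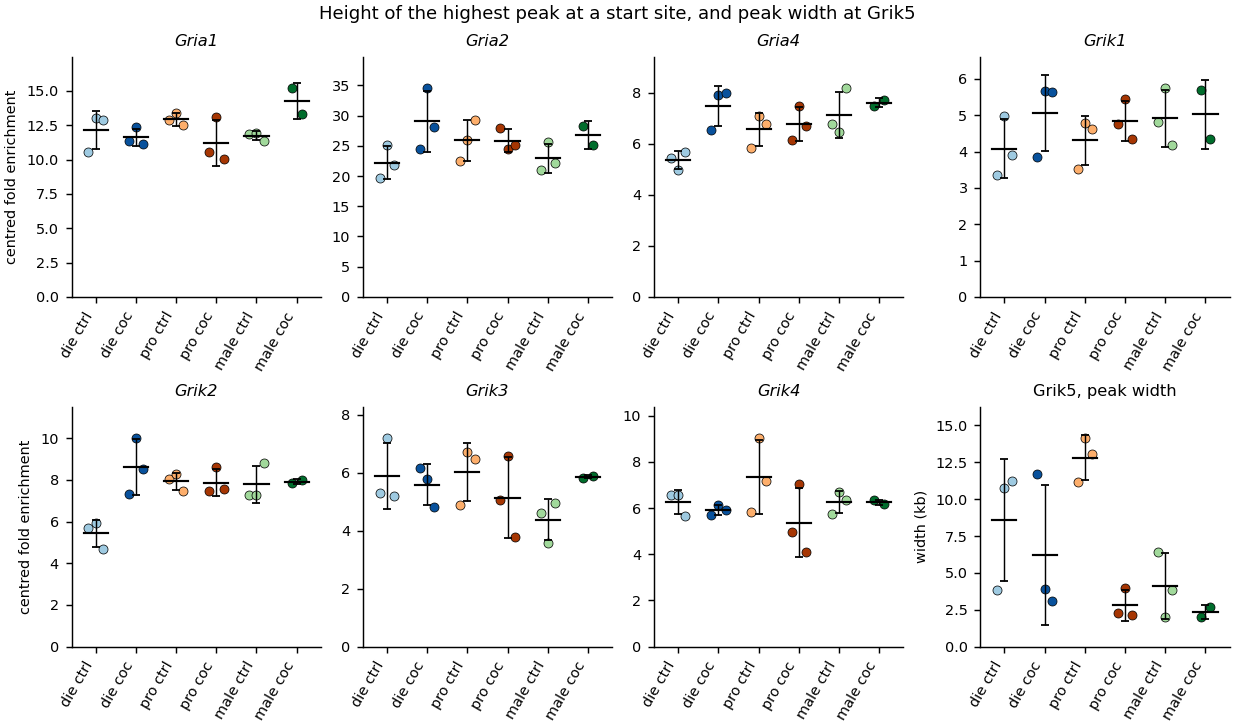
Height of the highest peak with its summit within 1 kb of an annotated start, as centred fold enrichment, for 7 genes. The last panel gives the width in kb of the widest peak over or within 1 kb of the Grik5 start. Points are the libraries of the 6 groups (die for diestrus, pro for proestrus, ctrl for control, coc for cocaine). Lines are group means, bars are SD, and the y axes start at 0. Diestrus controls sit lowest at Grik2 (4.69 to 5.92). The widest peak at the Grik5 start spans 11163 to 14152 bp in proestrus controls and 2127 to 3985 bp after cocaine in proestrus. These need not be the same peak, since 0 proestrus controls and all 3 proestrus cocaine libraries had a summit within 1 kb of that start.

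The number of regions called at a gene varied between libraries. At Grik5, 22, 21 and 20 regions were called in proestrus controls and 8, 7 and 7 after cocaine. The groups did not overlap. Of all kept regions, 51.6%, 51.7% and 56.2% were called in these controls and 59.4%, 53.5% and 57.7% after cocaine. In diestrus the counts were 12, 18 and 15 in controls against 16, 6 and 4 after cocaine, and in males 12, 7 and 10 against 5 and 8. These groups overlapped in diestrus and in males. At Grik3, diestrus controls had 16, 30 and 29 regions and diestrus cocaine libraries 21, 10 and 5, while proestrus controls had 12, 10 and 11. At Grik4, the diestrus counts were 27, 32 and 33 against 34, 22 and 14. At all 3 genes diestrus cocaine 1 was within or just above the range of the controls, and diestrus cocaine 2 and 3 were below it. The shares of all kept regions called were 56.0%, 61.2% and 64.2% in diestrus controls and 66.1%, 52.9% and 45.6% after cocaine.

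The AMPA receptor genes showed no such order in diestrus. Gria1 counts in diestrus were 61, 61 and 64 in controls and 90, 75 and 56 after cocaine, Gria2 counts 16, 17 and 19 and 19, 21 and 21, and neither gene's groups were apart. Gria4 counts in proestrus were 7, 7 and 6 in controls and 12, 8 and 10 after cocaine, without overlap. The same held for Grik1, the sparsest gene, with 5, 5 and 5 against 8, 7 and 8. Of all kept regions these proestrus controls called 51.6%, 51.7% and 56.2%, and the proestrus cocaine libraries 59.4%, 53.5% and 57.7%. Grik2 counts spread most, with 56, 59 and 94 in diestrus controls and 86, 58 and 96 after cocaine in proestrus. In males every one of the 8 genes had a lower mean count after cocaine, in the libraries with the fewest peaks of all. Over all 8 genes 203 ± 18.5 regions (SD, n = 3) were called in male controls and 127 ± 16.97 (n = 2) after cocaine, which per 10000 regions called in the library came to 20.1 ± 0.96 and 21.9 ± 0.81. The number of libraries per group does not let an exact permutation test of such counts pass a threshold of 0.05, and none was run.

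**Figure D2:**
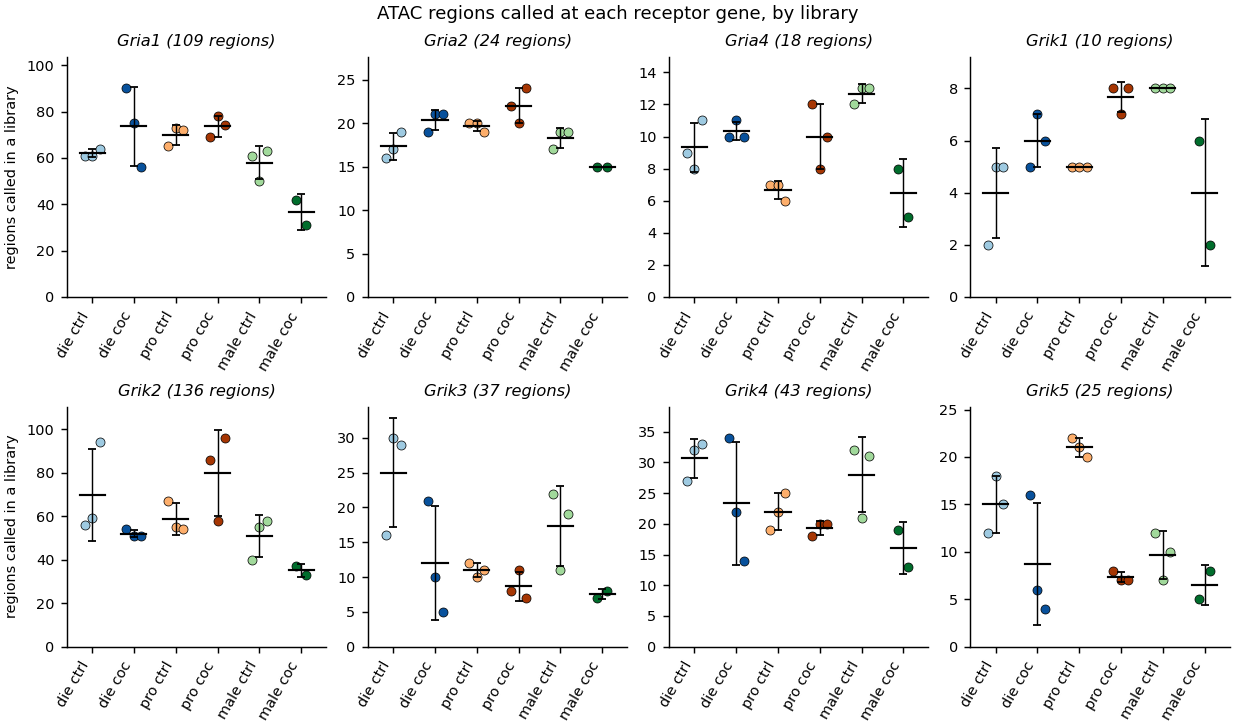
Number of kept regions called in each library (points) at each of the 8 genes, by group (die, diestrus; pro, proestrus; ctrl, control; coc, cocaine), with the group mean (line) and SD (bars); the y axes start at 0 and differ between genes. Proestrus controls and proestrus cocaine libraries are apart at Grik5 (20 to 22 against 7 to 8). Of all kept regions, proestrus controls called 51.6% to 56.2% and proestrus cocaine libraries 53.5% to 59.4%. The Grik3 and Grik4 counts of diestrus cocaine spread widely.

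The first comparison of heights asked how cocaine changed the accessibility of these genes in diestrus. At 3 regions height rose and at 5 it fell, of 69 tested. Over all 36847 regions 6.16% rose and 4.9% fell, against 4.35% and 7.25% of the members. The rises lay at Grik2 and Gria4, and the falls at Grik4, Grik5 and 1 intron of Grik2. All tests of height are limma fits over all regions with Benjamini-Hochberg adjustment, and all differences are on the log2 scale. At the start of Grik2 (chr10:49776965-49790194), which encodes a pore-forming kainate subunit, centred fold enrichment was 5.68, 5.92 and 4.69 in controls and 7.32, 10.02 and 8.51 after cocaine. The cocaine libraries were all above the controls, and the difference was 0.66 ± 0.15 (SE, adjusted p = 0.0078). At the start of Gria4 (chr9:4794886-4796529) the values were 5.42, 4.97 and 5.67 against 6.55, 7.90 and 7.96. The difference was 0.48 ± 0.16 (SE, adjusted p = 0.0427). The Gria4 call passed in 6 of 14 alternative fits, and that at the start of Grik2 in 12 of 14. Another rise was found in intron 1 of Grik2 (chr10:49713303-49717713), from 4.65, 5.08 and 5.67 to 6.55, 7.46 and 8.10 (0.52 ± 0.17 SE, adjusted p = 0.0383). This region, with a GC content of 32.9%, did not pass when heights were centred by GC content (0.37, adjusted p = 0.0936), and it passed in 4 of 14 alternative fits. For the start of Gria2 the difference of 0.38 ± 0.14 (SE, adjusted p = 0.0776) did not pass.

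Grik4, which encodes a high-affinity kainate subunit, lost height in diestrus at 2 introns. At chr9:42878159-42878962, 65.9 kb from the annotated start, the controls had 10.3, 11.96 and 11.8 and the cocaine libraries 10.2, 5.34 and 4.81, and the difference was -0.83 ± 0.20 (SE, adjusted p = 0.0107). At chr9:42642395-42643817 in intron 6, the values were 16.8, 19.9 and 20.05 against 17.2, 10.5 and 10.99 (-0.59 ± 0.16 SE, adjusted p = 0.0203). In both regions diestrus cocaine 1 was within or next to the range of the controls, and the other two cocaine libraries were far below it. All 8 tested regions of Grik4 had a negative difference, with a median of -0.46, against 0.01 over all regions. At Grik5 all 4 differences were negative, with a median of -0.56. Of these, 2 passed, among them the region with its summit at the start of the neighbouring gene Zfp574 (-0.58 ± 0.16 SE, adjusted p = 0.0228). Within Grik2, the highest intronic region (chr10:49434687-49440845) fell from 12.1, 9.42 and 11.1 to 8.48, 7.46 and 6.04 (-0.58 ± 0.16 SE, adjusted p = 0.0171).

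The diestrus count of 8 depended on single libraries. It was 16 without cocaine 1, 0 without cocaine 2, 1 without cocaine 3, 3 without control 2 and 0 without control 3. Without centring it was 1, and the share of higher calls over all regions went from 55.7% to 76.1%.

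**Figure D3:**
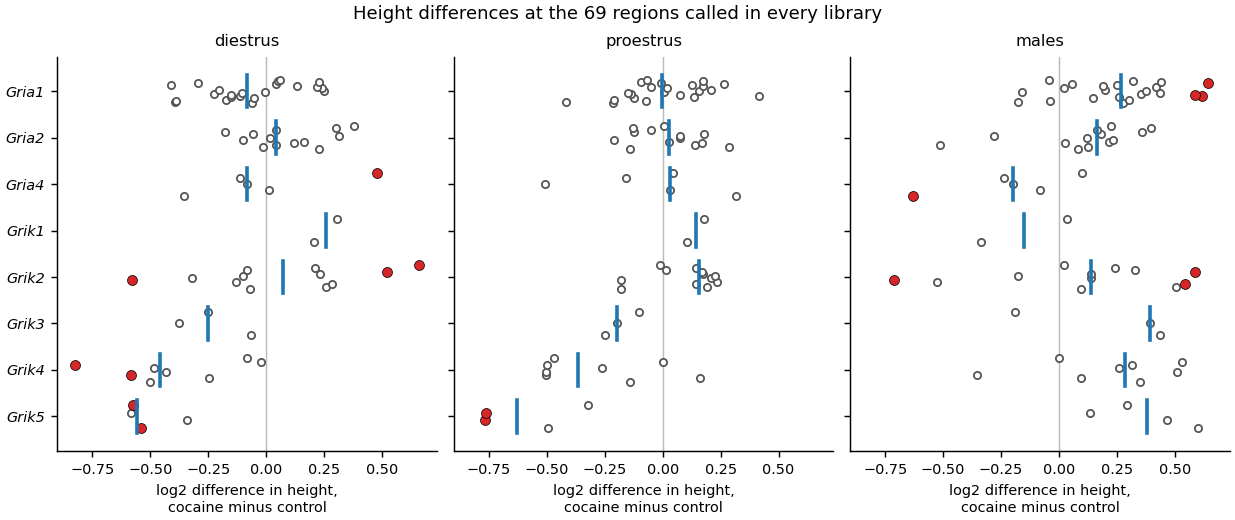
Log2 difference in height, cocaine minus control (x axis), at the 69 member regions called in every library, by gene and for diestrus, proestrus and males; filled red points passed an adjusted p of 0.05, open points did not, and the blue bar is the median of the gene. The Grik3, Grik4 and Grik5 medians are negative in both female stages (-0.25, -0.46 and -0.56 in diestrus) and positive in males (0.39, 0.29 and 0.38), where they turn negative without centring (-0.09, -0.20 and -0.10).

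In proestrus, the same comparison found 2 member regions that fell and 0 that rose, both falls within Grik5, the gene of the other high-affinity kainate subunit. Over all regions 1.55% rose and 1.85% fell. In intron 11 (chr7:25046434-25051857), centred fold enrichment was 6.70, 6.07 and 6.15 in controls and 3.48, 3.96 and 3.67 after cocaine. The groups did not overlap, and the difference was -0.77 ± 0.18 (SE, adjusted p = 0.0145). Over coding exons 8.2 kb from the start (chr7:25061705-25064667), the values were 10.96, 8.52 and 7.07 against 4.57, 5.78 and 5.12 (-0.76 ± 0.21 SE, adjusted p = 0.0347). Both summits lie inside the gene and away from the starts of its neighbours. At Grik4 the differences in the regions that fell in diestrus were -0.50 ± 0.20 (SE, adjusted p = 0.156) and -0.50 ± 0.16 (SE, adjusted p = 0.0732), and neither passed. The start of Grik2, which rose in diestrus, had 8.04, 8.26 and 7.48 in proestrus controls and 7.45, 8.61 and 7.57 after cocaine (-0.01 ± 0.15 SE, adjusted p = 0.976).

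The widest peak over or within 1 kb of the Grik5 start spanned 11163, 14152 and 13095 bp in proestrus controls and 2251, 3985 and 2127 bp after cocaine. A peak had its summit within 1 kb of that start in 0 proestrus controls and in all 3 proestrus cocaine libraries. The widths therefore need not be those of the same peak. In diestrus the widths were 3842, 10740 and 11228 bp against 11683, 3873 and 3101 bp, and in males 6428, 1997 and 3856 bp against 2027 and 2678 bp. The proestrus controls were wider than every other library except that diestrus cocaine 1 and diestrus control 3, at 11683 and 11228 bp, exceeded the narrowest of them. The proestrus count of 2 became 7 without cocaine 2 and 0 without any one of the other libraries of either group. It was 0 without centring, where the share of higher calls over all regions went from 45.6% to 94.8%.

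**Figure D4:**
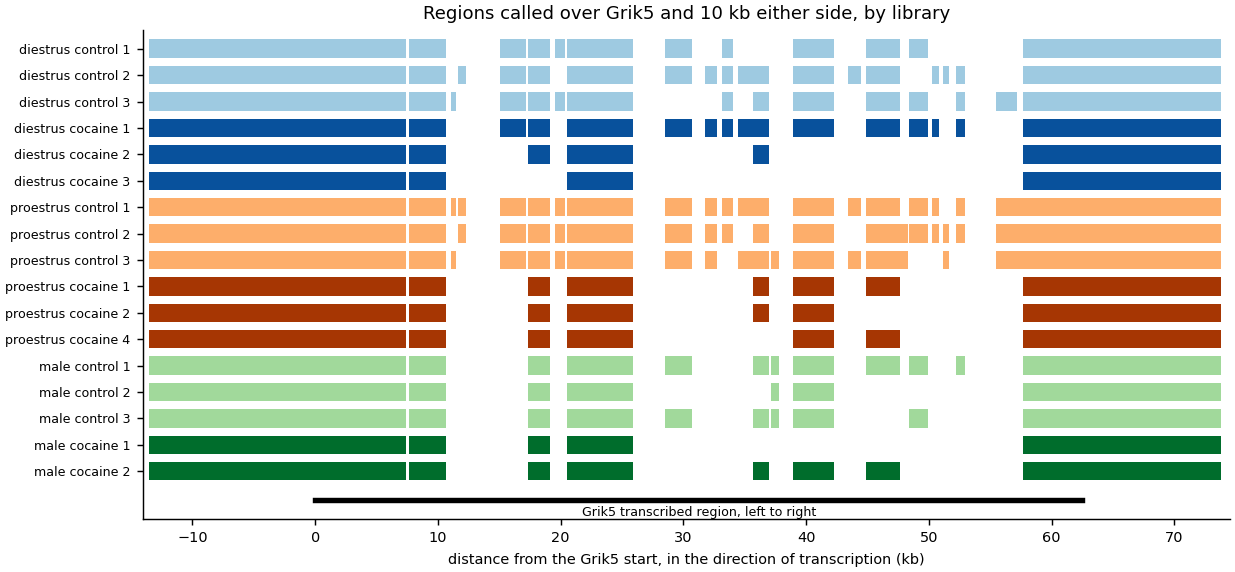
Regions called over Grik5 and 10 kb at each side in each of the 17 libraries (rows, coloured by group); the x axis is the distance in kb from the Grik5 start in the direction of transcription, blocks are the full extents of merged regions called in that library, and the black line is the transcribed region. Blocks between about 11 and 58 kb are dense in proestrus controls (20 to 22 regions in the window) and sparse after cocaine in proestrus (7 to 8).

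In males, 5 member regions rose after cocaine and 2 fell, against 5.56% and 4.0% of all regions (7.25% and 2.9% of the members). The rises lay at Gria1 and Grik2. Gria1, the gene of the subunit tied to synaptic insertion, rose at 3 intronic regions and fell at 0. In intron 2 (chr11:57138735-57141280, 129.0 kb from the start) the controls had 8.20, 8.49 and 7.78 and the cocaine libraries 12.9 and 12.1 (0.61 ± 0.16 SE, adjusted p = 0.012). A second region of intron 2 (chr11:57154207-57156900) went from 9.22, 7.17 and 8.07 to 11.6 and 12.8 (0.59 ± 0.17 SE, adjusted p = 0.0256). In intron 13 (chr11:57297430-57298655) the values were 3.59, 3.71 and 3.99 against 5.57 and 6.17 (0.64 ± 0.19 SE, adjusted p = 0.0264). Of the 22 tested regions of Gria1, 18 had a positive difference, with a median of 0.27, against 0.09 over all regions.

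Grik2 moved both ways in males. Intron 1 (chr10:49713303-49717713) rose from 3.996, 3.47 and 3.23 to 5.19 and 5.47 (0.59 ± 0.19 SE, adjusted p = 0.0395), and intron 13 (chr10:49149559-49150846) by 0.54 ± 0.18 (SE, adjusted p = 0.0498). Intron 6 (chr10:49434687-49440845) fell from 12.5, 14.2 and 12.9 to 7.97 and 8.14 (-0.71 ± 0.17 SE, adjusted p = 0.00786). The Grik2 regions in introns 1 and 6 had passed in the same direction in diestrus. At Gria4, intron 6 (chr9:4513462-4514849) fell from 6.66, 6.81 and 6.55 to 4.43 and 4.21 (-0.63 ± 0.20 SE, adjusted p = 0.0373). Markers of cortical excitatory neurons were higher in the same male controls, as given above. The male count of 7 rested on few libraries, with 0 calls without cocaine 1, 0 without cocaine 2, 2 without control 2 and 1 without control 3. Scaling changed these counts. Without centring, where the median of all regions lay at -0.40, 14 member regions fell and 0 rose, and the differences of the 5 rises, between 0.06 and 0.16, did not pass. With quantile normalization 2 rose and 3 fell. Over all regions the share of higher calls went from 58.2% to 0.9% without centring and to 41.2% with quantile normalization.

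Whether cocaine acted differently in the sexes was tested directly, as the difference between the male effect and the mean of the effects in both female stages. It was positive and past the threshold at 11 of the 69 member regions (15.9%) and negative at 0, against 11.9% and 6.53% of all regions. All 4 tested regions of Grik5 were among them, with 3 of 8 at Grik4, 3 of 22 at Gria1 and 1 of 3 at Grik3. At Grik5 intron 11 (chr7:25046434-25051857) the difference of effects was 1.02 ± 0.23 (SE, adjusted p = 0.00373). Centred fold enrichment there was 5.81, 4.66 and 6.06 in diestrus controls and 5.68, 3.34 and 4.26 after cocaine, and 4.30, 3.47 and 4.27 in male controls and 5.57 and 5.47 after cocaine. On this centred scale both male cocaine libraries were above all male controls, while in proestrus all cocaine libraries were below all controls. At Grik4 intron 2 (chr9:42678249-42680228) the difference of effects was 0.98 ± 0.20 (SE, adjusted p = 0.00162). Its values were 13.2, 13.9 and 14.1 and 12.6, 10.2 and 8.10 in diestrus, 11.3, 11.7 and 10.1 and 8.24, 8.04 and 7.12 in proestrus, and 9.43, 7.89 and 7.69 and 11.1 and 12.5 in males, controls first. On the centred scale the cocaine libraries were below their controls in both female stages and above them in males. In males alone, 0 regions of Grik4 and 0 of Grik5 passed in either direction. Without centring, the differences of effects were 0.475 at Grik5 intron 11 and 0.429 at Grik4 intron 2, and neither passed.

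The count of 11 was 3 without male cocaine 1, 3 without male cocaine 2, 5 without male control 2 and 7 without diestrus control 2. At 9 of the 11 regions the difference without centring lay between 0.08 and 0.48 and did not pass, while 0 member regions were then higher and 16 lower, and the share of higher calls over all regions went from 64.5% to 1.3%. With quantile normalization 10 were higher and 3 lower, and over all regions the share was 49.8%. The effects in diestrus and proestrus passed a test of their difference at 0 of the 69 regions by limma (at an unadjusted p under 0.05, 1 was higher and 3 lower), and over all regions 0.0% were higher and 0.00543% lower. At the start of Grik2, where only the diestrus effect had passed, the difference between the stages was 0.67 ± 0.22 (SE, adjusted p = 0.654), so that a difference between them is not shown.

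Sex and cycle stage were then compared in controls alone. Against diestrus controls, male controls were higher at 3 and lower at 8 member regions, against 10.9% and 13% of all regions. Grik4 was lower in males at 3 regions. At chr9:42878159-42878962 the values were 6.25, 5.26 and 5.70 in males and 10.3, 11.96 and 11.8 in diestrus, without overlap (-0.99 ± 0.20 SE, adjusted p = 0.000642). Intron 2 of Grik4 (chr9:42678249-42680228) differed by -0.72 ± 0.15 (SE, adjusted p = 0.000734) and intron 1 (chr9:42764472-42765639) by -0.63 ± 0.19 (SE, adjusted p = 0.0164). Gria1 intron 2 (chr11:57138735-57141280) was lower in males as well, at 8.20, 8.49 and 7.78 against 11.4, 13.97 and 12.5 (-0.63 ± 0.14 SE, adjusted p = 0.00177). Higher in males were a region over coding exons of Gria2 (chr3:80696119-80704244, 0.69 ± 0.17 SE, adjusted p = 0.00343), the start of Grik2 (0.53 ± 0.15 SE, adjusted p = 0.0121) and intron 6 of Gria4 (0.65 ± 0.18 SE, adjusted p = 0.00736). Since these diestrus and male controls also enter the cocaine comparisons, a region high in one control group can appear in both.

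Against proestrus controls, males were higher at 2 and lower at 7 member regions, against 5.87% and 8.79% of all regions. In intron 1 of Grik2 (chr10:49713303-49717713) the values were 3.996, 3.47 and 3.23 in males and 6.94, 6.84 and 7.07 in proestrus (-0.97 ± 0.17 SE, adjusted p = 0.00015), and the region was also lower than in diestrus (-0.53 ± 0.17 SE, adjusted p = 0.0195). Intron 6 of Gria4 was again higher in males, at 6.66, 6.81 and 6.55 against 3.04, 4.78 and 3.79 (0.81 ± 0.18 SE, adjusted p = 0.00201), and Gria1 intron 11 (chr11:57270629-57273099) as well (0.61 ± 0.15 SE, adjusted p = 0.00487). Lower in males were Gria1 intron 10 (chr11:57239176-57240783, -0.70 ± 0.16 SE, adjusted p = 0.00396) and Grik5 intron 11 (-0.66 ± 0.18 SE, adjusted p = 0.0112). At Gria2, regions passed in intron 2 (chr3:80792963-80796062, -0.53 ± 0.18 SE, adjusted p = 0.0361) and over the 3′ end (chr3:80666506-80690169, -0.49 ± 0.16 SE, adjusted p = 0.0334). Without centring these counts were 4 higher and 1 lower against diestrus and 14 higher and 1 lower against proestrus, with the median of all regions at 0.17 and 0.34. The percentage of higher calls over all regions went from 45.4% to 85.2% and from 40.0% to 98.3%, and to 52.7% against proestrus with quantile normalization. Leaving out a library gave counts of 7 (diestrus control 2), 7 (diestrus control 3), 6 (male control 2) and 7 (male control 3) in place of 11, and 5 (proestrus control 2), 5 (male control 2) and 4 (male control 3) in place of 9.

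Diestrus and proestrus controls differed at 0 of the 69 regions by limma, with 0.214% of all regions higher in diestrus and 0.103% lower. At an unadjusted p under 0.05, 6 were higher and 6 lower, among them the start of Grik2 (-0.55 ± 0.15 SE, adjusted p = 0.0942).

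A region can also appear or vanish. Called in every cocaine library and in no control of its stratum (gained), or the reverse (lost), are counts of calls with no test. In diestrus 3 of 402 member regions were gained (1.16% of all regions were) and 5 lost (1.26%). The gains were 1 each at Gria1, Gria2 and Gria4, and the losses lay at Grik2 (2), Grik3 (2) and Grik4 (1). The gained region of Gria2, chr3:80712083-80714196 in intron 6, was absent from the 3 diestrus controls and called in all 14 other libraries. The highest of the losses, by its mean over the libraries that called it, chr9:42615073-42616900 in intron 9 of Grik4, had fold enrichments of 2.71, 2.68 and 2.91 in diestrus controls. In proestrus 5 were gained (2.45%) and 6 lost (1.64%). All 6 losses lay in Grik5, between 15.8 and 57.3 kb from its start, and 4 of the 5 gains in introns of Grik2. The highest of the lost regions was chr7:25041645-25043812 in intron 12, with fold enrichments of 3.17, 2.78 and 3.13 in proestrus controls. At chr7:25055181-25057253 in intron 11 these were 2.96, 3.02 and 2.84, and the region was also called in all 3 diestrus controls but in 1 of 3 diestrus cocaine libraries and in no male library. These heights lay close to the smallest fold enrichment of any peak, which was between 1.97 and 2.21 in the libraries. With peaks at a -log10 q of at least 5 the proestrus losses went from 6 to 2. With a library left out more regions meet the definition. Diestrus gains became 8, 7 and 11 without cocaine 1, 2 and 3 and 9 without control 3. Diestrus losses became 27 and 9 without cocaine 1 and 3 and 19 and 11 without control 1 and 2. In proestrus, gains became 12, 24 and 10 without cocaine 1, 2 and 4 and 9, 11 and 10 without control 1, 2 and 3, and losses 11 and 10 without cocaine 2 and 4 and 14 and 15 without control 1 and 3.

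In males 4 member regions were gained (1.66%) and 32 lost (16.8%, against 7.96% of the members). The male cocaine libraries had the fewest peaks, and the losses counted 9 at Gria1, 7 at Grik2, 5 at Grik4, 4 at Grik3, 3 at Gria4, 2 at Gria2 and 1 each at Grik1 and Grik5. With the same number of strongest peaks (75458) in every library, 8 were lost and 10 gained. Without male cocaine 1 the losses were 54 and without male control 2 they were 58, and the gains were 12 and 13 without cocaine 1 and 2 and 7 without control 1. Some of the losses were called in no other library than the male controls. There were 3 of these, against 4.71% of all regions. They were chr9:4573551-4574038 in intron 4 of Gria4 with fold enrichments of 5.74, 4.41 and 6.15, chr9:42917902-42918451 in an intron of Grik4 with 7.78, 4.27 and 5.598, and chr4:125682056-125682404 in intron 10 of Grik3 with 4.33, 3.17 and 2.85. A region in intron 1 of Grik1 (chr16:88094148-88094758) was called at 5.35, 3.86 and 5.71 in the male controls and elsewhere only in male cocaine 1. The cortical excitatory markers were highest in these same male controls, and their part was not tested.

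Over all 8 cocaine and 9 control libraries, 211 member regions called in 4 to 13 libraries could be compared by a two-sided Fisher's exact test. None passed after adjustment over 64304 regions, of which 0.0% were more and 0.0% less often called after cocaine. At an unadjusted p under 0.05, 3 member regions were called more often (3.81% of all regions) and 7 less often (9.23%). The smallest p was at Grik4 intron 9 (chr9:42615073-42616900), which 0 of 8 cocaine libraries and 7 of 9 controls called (Fisher's exact p = 0.00226, adjusted p = 0.216). A region downstream of Grik4 (chr9:42515189-42515746) was called in 1 of 8 and 8 of 9 (exact p = 0.00337), and Grik5 intron 12 (chr7:25041645-25043812) in 1 of 8 and 7 of 9 (exact p = 0.0152). Of the 7 called less often, 3 lay at Grik4 and 4 at Grik5.

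GC content moved with these differences and is given beside them. In diestrus the median log2 difference over all regions went from 0.12 in the regions of lowest GC content (up to 41.3%) to -0.06 in those of highest (from 52.5%), when regions were split by rank into 5 equal parts. In proestrus it went from 0.15 to -0.16, and in males from 0.02 to 0.19. Among the members, Grik3, Grik4 and Grik5 lay at the GC-rich end and Grik2 and Gria2 at the poor end. In the 5 parts, from lowest to highest GC content, the median diestrus difference of member regions was 0.01, 0.10, -0.11, -0.38 and -0.17. These parts held 29, 12, 11, 7 and 10 member regions. For all regions the medians were 0.12, 0.06, -0.002, -0.07 and -0.06. When heights were centred within 20 bins of GC content, 2 member regions rose and 9 fell in diestrus, 3 fell in proestrus, and 8 of the differences between male and female effects passed. Grik5 intron 11 kept its call in proestrus (-0.69, adjusted p = 0.0252), and the coding exon region of Grik5 did not (-0.65, adjusted p = 0.0601). Among the regions that differed between sexes, Grik5 intron 11 (0.93, adjusted p = 0.0055) and Grik4 intron 2 (1.07, adjusted p = 3.27e-04) kept theirs, while 5 of the 10 largest did not. These were chr9:42878159-42878962 (0.71, adjusted p = 0.0691) and chr9:42573081-42574557 (0.37, adjusted p = 0.242) of Grik4, the coding exon region (0.61, adjusted p = 0.0962) and the start region (0.44, adjusted p = 0.066) of Grik5, and intron 1 of Grik3 (0.50, adjusted p = 0.0938). The other calls named for diestrus kept theirs apart from intron 1 of Grik2 (0.37, adjusted p = 0.0936), and those named for males apart from intron 13 of Grik2 (0.50, adjusted p = 0.072). All calls named between control groups kept theirs.

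**Figure D5:**
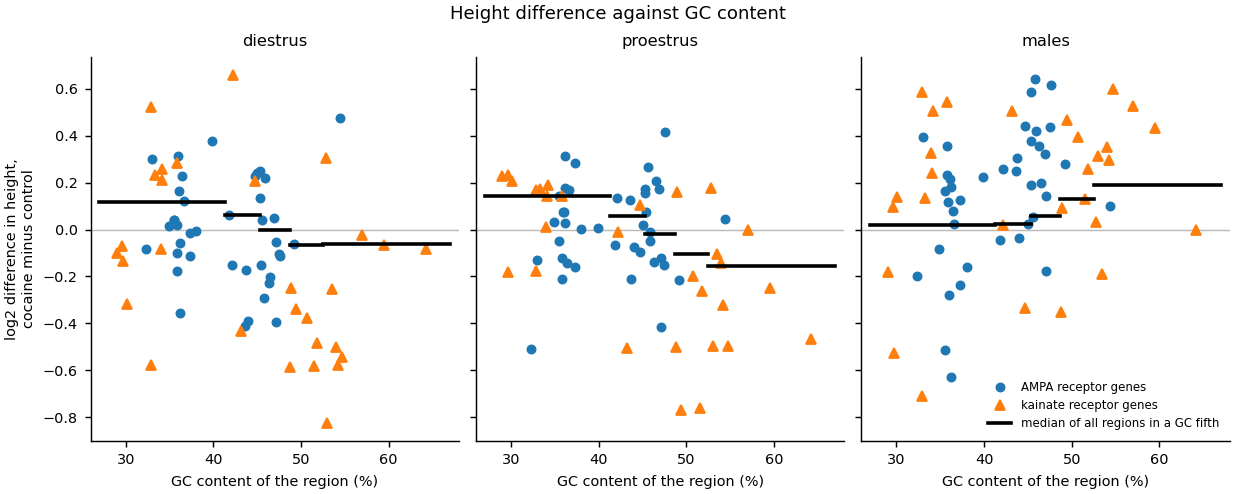
Log2 difference in height, cocaine minus control (y axis), against the GC content of the region in percent (x axis) for the 69 tested member regions, with AMPA receptor genes as blue circles and kainate receptor genes as orange triangles; black bars are the medians of all 36847 regions in each of 5 equal parts by GC content. The bars fall with GC content in both female stages (0.12 to -0.06 in diestrus, 0.15 to -0.16 in proestrus) and rise in males (0.02 to 0.19).

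Sequence at the summits shows how regions past the threshold are composed, 1 for each of 4 genes. The windows of 101 bases are centred on the summit of the highest peak (GRCm38, 5′ to 3′ on the gene's strand), and capitals mark G and C. They are Grik2 intron 6 (chr10:49436482-49436582), which fell in diestrus and in males, Grik5 intron 11 (chr7:25049674-25049774), which fell in proestrus, the Grik4 intron 65.9 kb from the start (chr9:42878542-42878642), which fell in diestrus, and Gria1 intron 2 (chr11:57140322-57140422), which rose in males.
Grik2 intron 6: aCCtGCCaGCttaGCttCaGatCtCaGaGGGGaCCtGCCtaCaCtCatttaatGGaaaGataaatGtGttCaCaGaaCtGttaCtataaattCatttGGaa
Grik5 intron 11: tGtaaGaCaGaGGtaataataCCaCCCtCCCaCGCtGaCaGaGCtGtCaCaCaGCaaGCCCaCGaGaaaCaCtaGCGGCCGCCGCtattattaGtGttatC
Grik4 intron: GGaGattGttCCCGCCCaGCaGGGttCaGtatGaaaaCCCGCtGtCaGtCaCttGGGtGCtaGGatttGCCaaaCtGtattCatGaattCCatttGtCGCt
Gria1 intron 2: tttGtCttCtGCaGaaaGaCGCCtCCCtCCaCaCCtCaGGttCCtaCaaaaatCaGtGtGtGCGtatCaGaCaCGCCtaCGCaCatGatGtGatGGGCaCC
GC content of the windows was 39.6%, 50.5%, 48.5% and 51.5%. None held an AP-1 site.

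AP-1 is the site of the Fos and Jun proteins, which neurons make within the hour after strong activity. Within 100 bases of the summit, 31 of the 402 member regions (7.71%) held such a site, against 10.08% of all regions. The share was highest at Gria4 with 6 of 18 (33.3%), followed by 13 of 109 (11.9%) at Gria1, and was 5 of 136 (3.7%) at Grik2 and 0 of 10 at Grik1. None of the member regions that passed a test of height after cocaine (8 in diestrus, 2 in proestrus and 7 in males) was among the 31. The share with a site among all regions of the genome that passed is not given. With so few regions this is not a result about AP-1. No member region held a CRE, an Egr site or an estrogen response element, which 0.50%, 0.16% and 0.01% of all regions held. Introns of Gria4 are shown in windows of the same length centred on the AP-1 site, which is in capitals: the high region of intron 4 (chr9:4639331-4639431) and the only AP-1 region of the 8 genes gained after cocaine in diestrus, in intron 3 (chr9:4775991-4776091).
Gria4 intron 4: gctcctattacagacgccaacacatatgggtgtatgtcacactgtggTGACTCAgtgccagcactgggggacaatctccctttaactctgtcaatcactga
Gria4 intron 3: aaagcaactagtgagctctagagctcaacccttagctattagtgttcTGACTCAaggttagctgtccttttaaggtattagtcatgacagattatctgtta
The site lay 65 and 34 bases from the summit. The region of intron 4 was called in all 17 libraries at similar heights, with 16.7, 16.2 and 15.9 in diestrus controls and 17.1, 13.7 and 14.4 after cocaine (-0.11 ± 0.15 SE, adjusted p = 0.639). The region of intron 3 (chr9:4775883-4776232) was called in the 3 diestrus cocaine libraries alone, with fold enrichments of 2.85, 3.02 and 2.41, near the smallest of any peak.

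The other genes of the pathway were followed as a list of 24 that encode auxiliary subunits, scaffold and trafficking proteins, neuronal pentraxins and the enzyme that edits Gria2 transcripts. Of their 123 regions tested by limma, 2 rose and 10 fell after cocaine in diestrus, 1 rose and 4 fell in proestrus, and 13 rose and 3 fell in males. As shares these were 1.63% and 8.13% in diestrus against 6.16% and 4.9% of all regions, 0.813% and 3.25% in proestrus against 1.55% and 1.85%, and 10.6% and 2.44% in males against 5.56% and 4.0%. The largest changes were falls at Gsg1l, an auxiliary subunit gene, by 0.79 ± 0.17 (SE, adjusted p = 0.00563) in diestrus and by 1.00 ± 0.18 (adjusted p = 0.0026) in proestrus, at chr7:126078986-126085708 and chr7:125975888-125977384. In males the largest were both at Shisa9, another auxiliary subunit gene, with a rise of 1.10 ± 0.20 (adjusted p = 3.81e-04) at chr16:12247165-12248835 and a difference of -0.98 ± 0.20 (adjusted p = 0.00165) at chr16:12014224-12015252. The difference between male and female effects was higher at 32 and lower at 4 of the 123, or 26% and 3.25% against 11.9% and 6.53% of all regions. Counts of the list are given for the main scaling only. Over all regions, the share of higher calls for this difference went from 64.5% to 1.3% without centring and to 49.8% with quantile normalization. The list's median difference was -0.13 for the diestrus, -0.21 for the proestrus and 0.19 for the male comparison, against -0.07, 0.00 and 0.19 at the 8 receptor genes. Of 508 kept regions of the list, 12 were lost (2.36%, against 1.26% of all regions) and 1 gained (0.197%, against 1.16%) in diestrus. The same counts were 10 (1.97%, against 1.64%) and 4 (0.787%, against 2.45%) for proestrus and 69 (13.6%, against 16.8%) and 2 (0.394%, against 1.66%) for males.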

How the data were processed

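Each of the 17 ATAC-seq libraries came from NeuN+ nuclei pooled from 3 mice. Per the labels and the study's methods, the authors trimmed adapters, aligned reads to mm10 with BWA-MEM and called peaks in each library with MACS2, with versions and options not given in the sources used here. The deposited peak lists hold fold enrichment (a ratio of pileup over the library's background), -log10 p, -log10 q and a score, which was not used. The study's later filters and read counts are not in these lists. Groups came from titles.

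Peaks of chromosomes 1 to 19 and X were merged across libraries, and a region was kept if called in at least 2 libraries of one group. Height was the highest fold enrichment in the region. At the 36847 regions called in all libraries, log2 heights were centred on each library's median and fitted in limma 3.58.1 (R 4.3.3) with 6 group means, a trended variance prior and Benjamini-Hochberg adjustment over all regions per contrast, at a threshold of 0.05. Regions that vanish are outside this test. Calls were compared by Fisher's exact test (SciPy 1.17.1). Gene bodies and starts were those of GENCODE. Regions are named where they lie at a start, are the highest elsewhere in a gene, are among the 10 largest past the threshold or among the 5 highest gained or lost. The Gria4 region of intron 4, the Grik1 region of male libraries and the Fisher examples were chosen after their values were seen. Members and the lists of markers, partner genes and motifs were chosen with earlier results of these data known. Of the regions and markers, 1 region and 2 markers are not reported here, though the region remains in the counts. Steps were tested on simulated data. Alternatives were other scalings, filters and variance priors, a replicate block, unextended gene bodies and each library left out.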

Additional observations from a re-analysis of the deposited data

Results flagged for a closer look

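The following regions were singled out because the effect of cocaine in males differed from the mean effect in diestrus and proestrus, by a limma test of that difference with adjusted p under 0.05. The differences of effects, male minus female on the log2 scale, were 1.02 in intron 11 of Grik5 (chr7:25046434-25051857), 0.80 over coding exons of Grik5 (chr7:25061705-25064667) and 0.74 at the region of the Grik5 and Zfp574 starts (chr7:25064932-25085857). At Grik4 they were 0.98 in intron 2 (chr9:42678249-42680228), 0.97 at chr9:42878159-42878962 and 0.67 at chr9:42573081-42574557. At Grik3 the difference was 0.68 in intron 1 (chr4:125544675-125546677). At Gria1 it was 0.79 in intron 13 (chr11:57297430-57298655), 0.63 at chr11:57154207-57156900 and 0.56 at chr11:57168855-57172795. With heights centred by GC content, the calls were lost over the Grik5 coding exons (adjusted p = 0.0962), at the Grik5 and Zfp574 starts (0.44, adjusted p = 0.066), at chr9:42878159-42878962 of Grik4 (0.71, adjusted p = 0.0691), at chr9:42573081-42574557 of Grik4 (0.37, adjusted p = 0.242) and in intron 1 of Grik3 (0.50, adjusted p = 0.0938). Markers of cortical excitatory neurons were higher in male controls (summed promoter height of 4 markers 27.4 to 31.9) than in male cocaine libraries (7.6 to 10.4), and their part in these differences was not tested. Groups of 2 or 3 libraries are too small for a test of single libraries that stand apart.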

How the results depend on the processing

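The counts of member regions past the threshold moved by over 1.5 times under these settings, and the causes were not tested. Without centring they were 1 in diestrus, 0 in proestrus, 14 in males, 5 for male against diestrus controls and 15 for male against proestrus controls. With missing heights filled at regions called in at least 14 libraries they were 5 in proestrus, 11 in males, 23 and 21, and with fits of the 2 groups alone 2 in diestrus, 14 in males, 17, 15 and, for diestrus against proestrus controls, 2. With GC centring the count against proestrus controls was 14. Replicate numbers did not pair the libraries (correlations of deviations -0.293, 0.023 and -0.143 in diestrus, 0.195 and 0.116 in proestrus, 0.020 and 0.016 in males). The replicate block gave 0 in proestrus (1 with GC centring), 4 in males and 7 for the difference between sexes (7 with GC centring), and moved no other count of height calls by over 1.5 times. Leaving out 1 library gave 0 to 16 in diestrus, 0 to 7 in proestrus, 0 to 5 in males, 6 to 12 and 4 to 9 for male against diestrus and proestrus controls, and 3 to 16 for the difference between sexes; where 1 male cocaine library remained it was assumed to vary like the other groups. For calls, it gave 4 to 11 gains and 5 to 27 losses in diestrus, 9 to 24 and 6 to 15 in proestrus, and 5 to 13 and 35 to 58 in males. With peaks of a -log10 q of at least 5, proestrus losses were 2 and male gains 1, and with equal numbers of strongest peaks proestrus losses were 2, male losses 8 and male gains 10. Without centring, the balance of member regions higher and lower turned from 5 and 2 to 0 and 14 in males, from 3 and 8 to 4 and 1 for male against diestrus controls, from 2 and 7 to 14 and 1 for male against proestrus controls and from 11 and 0 to 0 and 16 for the difference between sexes. No single named region changed sign. For these, 510 of the alternative fits kept the call and 227 kept only the direction. Leaving out the regions at neighbouring genes' starts, chosen after seeing the data, gave 6 in diestrus and 9 for the difference between sexes. Regions near the smallest callable height (1.97 to 2.21) are those where depth limits a call.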
